A study of Rattus norvegicus with 12 samples.

Results

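Interferon-stimulated genes are the genes that a cell switches on when it senses an interferon, and 43 of them were followed here through hippocampal slice cultures given antibodies against Nogo-A, a membrane protein of oligodendrocytes and neurons that limits neurite growth. The genes were taken by name, through probe sets annotated to exactly 1 gene symbol on the list, and the list was drawn up with earlier results of these data known. Of the 43 listed genes, 39 were measured, among 14217 genes of the array with such a symbol. The RIG-I gene Ddx58 was among them through its annotated synonym, Rig1. Gbp5, Oas2, Trim21 and Xaf1 were not analysed here.

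The cultures came from hippocampi of Wistar rats at postnatal day 7, cut at 350 µm and kept for 26 days at 33 °C with 4 slices per insert. The 4 groups were NT (not treated), IgG (a control monoclonal antibody against wheat auxin), 11C7 (a mouse monoclonal antibody against amino acids 623 to 640 of rat Nogo-A) and 7B12 (a mouse monoclonal antibody against amino acids 763 to 820). Each antibody was given at 3 µg/ml from day 21 in vitro for 5 days, with a medium change every 2 days. Each group had 3 arrays with numbers 1 to 3, 1 for each pool of 24 cultures, and per the labels the replicates were separate cultures from different animals. The slices are mixed tissue without blood flow, so every value is an average over neurons, glia and any leukocytes that remained. In such bulk RNA, more cells of a type and more RNA per cell cannot be told apart.

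As background, type I interferons act through the receptor chains Ifnar1 and Ifnar2, and interferon gamma through Ifngr1 and Ifngr2. Type I signalling assembles a complex of Stat proteins with Irf9, which binds the interferon-stimulated response element (ISRE) of target genes, whereas interferon gamma acts mainly through Stat dimers on the gamma-activated site (GAS). The induced proteins sense foreign nucleic acids, degrade or sequester viral RNA, block viral entry and release, and feed back on the pathway. In brain tissue microglia, astrocytes, endothelial cells and neurons can all respond, at different strengths.

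The control elements of these genes were read from the RefSeq promoters of rat build GRCr8, which cover 250 bases before to 50 bases after a gene start and were at hand for 30 of the 39 genes. Dhx58, Ifit2, Ifitm1, Irf2, Isg15, Mx2, Usp18, Zbp1 and Ddx58 were not in that table. Both strands were searched for the core of the ISRE, GAAA followed by any 2 bases and GAAA again, and for TTCNNNGAA, the GAS. The 2 whole promoters shown first belong to the genes with the 2 largest differences in 7B12, and capitals mark the ISRE core in either direction, so TTTC stands for GAAA on the other strand.
Gbp2 (chr2:234005477-234005776, plus strand): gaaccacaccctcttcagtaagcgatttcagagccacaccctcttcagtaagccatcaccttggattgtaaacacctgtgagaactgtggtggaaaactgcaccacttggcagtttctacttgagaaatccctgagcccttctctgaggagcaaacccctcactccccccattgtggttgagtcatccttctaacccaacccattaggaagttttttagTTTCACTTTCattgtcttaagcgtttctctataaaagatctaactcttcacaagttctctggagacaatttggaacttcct
Irf7 (chr1:205799974-205800273, minus strand): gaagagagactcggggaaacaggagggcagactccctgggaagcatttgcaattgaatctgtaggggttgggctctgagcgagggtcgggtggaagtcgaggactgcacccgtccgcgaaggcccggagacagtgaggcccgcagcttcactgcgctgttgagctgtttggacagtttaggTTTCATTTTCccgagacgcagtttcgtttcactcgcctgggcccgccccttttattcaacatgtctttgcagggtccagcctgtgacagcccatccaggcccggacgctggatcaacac
Counted from 0 at the gene start, the match lay at positions -31 to -22 in Gbp2 and at -69 to -60 in Irf7.

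For 6 further genes that stood higher in 7B12 at an unadjusted p under 0.05, and for Eif2ak2 and Ifih1, which did not, the match is shown with 20 bases on each side.
Oas1a (chr12:41330405-41330460, plus strand): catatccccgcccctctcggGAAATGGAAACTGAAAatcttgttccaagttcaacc
Rsad2 (chr6:48788238-48788287, minus strand): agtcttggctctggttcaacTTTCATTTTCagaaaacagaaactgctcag
Ifit3 (chr1:241527262-241527311, plus strand): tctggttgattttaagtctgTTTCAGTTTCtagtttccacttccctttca
Bst2 (chr16:18255063-18255118, minus strand): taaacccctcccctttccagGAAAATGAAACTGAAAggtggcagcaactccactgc
Parp14 (chr11:78408038-78408087, plus strand): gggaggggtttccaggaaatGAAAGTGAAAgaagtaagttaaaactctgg
Ifitm3 (chr1:205541773-205541822, minus strand): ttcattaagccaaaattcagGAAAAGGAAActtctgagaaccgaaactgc
Eif2ak2 (chr6:21941118-21941167, plus strand): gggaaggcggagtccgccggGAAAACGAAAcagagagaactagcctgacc
Ifih1 (chr3:67683998-67684047, minus strand): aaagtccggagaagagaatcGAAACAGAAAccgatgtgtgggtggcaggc
Oas1a and Bst2 each hold 2 overlapping matches, so their capitals run on as 1 longer stretch. An ISRE core was found in 16 of the 30 promoters (53.3%), against 4.12% of the 27457 genes with a promoter in the table. A GAS was found in 10 of 30 (33.3%, against 9.39% of all genes), and both motifs in 6 (20%, against 0.645%); these 6 were Bst2, Ifitm3, Igtp, Irgm, Oas1a and Parp14. Only in Bst2 did the GAS share bases with the ISRE core, by 3 bases. Of the 20 ISRE core matches, 18 started within 150 bases before the gene start. A match of letters is not evidence of binding.

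Each value below is the log2 of the authors' deposited ratio for a probe set less the median of its array, averaged over the probe sets of a gene; 0 is therefore near the gene's own middle over the arrays (except for Irf2), and values say nothing about one gene's level against another's. For that reason the presence of neuronal or glial transcripts could not be read as a level either. Values are given in the order of numbers 1, 2 and 3, a difference is one of group means in log2 units with its standard error (SE), and controls means the average of NT and IgG. Across the arrays, markers of neurons (9 of 9 measured) followed the replicate number more than the group: their mean was -1.69 to -1.07 in the 4 arrays numbered 1 and 0.44 to 1.22 in those numbered 2. With 3 arrays in each group the spread is known only roughly. No probe set of these genes was at the lowest value of the table.

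With 7B12 most interferon-stimulated genes stood above the controls, while with control IgG they stood close to NT. Averaged over the 39 genes, the arrays stood at -0.10, -0.45 and -0.13 in NT and at -0.076, -0.42 and -0.12 in IgG. They stood at 0.55, -0.098 and -0.048 in 11C7, and at 0.56, 0.25 and 1.17 in 7B12. All 3 arrays of 7B12 lay above all 6 control arrays, and so did 11C7 1, whereas 11C7 2 lay within the range of the controls and 11C7 3 just above it. The group means were 0.66 ± 0.47 (SD, n = 3) in 7B12, 0.14 ± 0.36 in 11C7, -0.20 ± 0.19 in IgG and -0.23 ± 0.19 in NT. Of the 39 genes, 22 had their highest value in 7B12 3, 7 in 11C7 1, 5 in 7B12 1 and 1 in 7B12 2, and the remaining 4 in NT 3 or IgG 3.

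**Figure D1:**
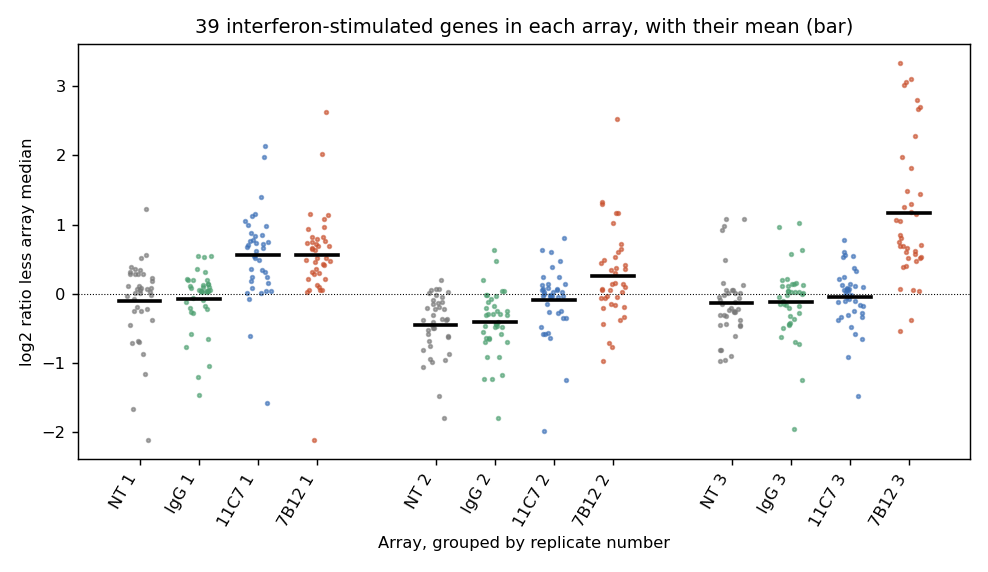
Log2 ratio less array median (vertical axis) of the 39 interferon-stimulated genes in each of the 12 arrays (horizontal axis, grouped by replicate number); each point is a gene and each bar the mean of the genes. Among arrays numbered 1 the 2 anti-Nogo-A antibodies had nearly the same mean (0.55 and 0.56), among those numbered 3 only 7B12 stood clear of the rest (1.17).

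Set against the mean of NT and IgG of the same number, the average over the 39 genes in 7B12 stood higher by 0.65, 0.69 and 1.30 for numbers 1, 2 and 3. In 11C7 the same differences were 0.64, 0.33 and 0.077, and IgG differed from NT of its number by 0.026, 0.031 and 0.015. By gene, 36, 34 and 34 of the 39 stood above the controls of their number in 7B12 1, 2 and 3, where 50.6%, 51.1% and 54.5% of all genes did. In 11C7 1, 2 and 3 it was 33, 32 and 20 of the 39, where 54.5%, 54.4% and 49.7% of all genes did, so that 11C7 3 was at the share of all genes. In 7B12, 30 of 39 genes stood above the controls of their number in all 3 arrays, where 19.5% of all genes did so. In 11C7, 14 of 39 did (14.2% of all genes), and for IgG less NT 5 of 39 (12.1%). The 2 antibodies share their control arrays. The labels do not say what arrays of 1 number have in common.

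**Figure D2:**
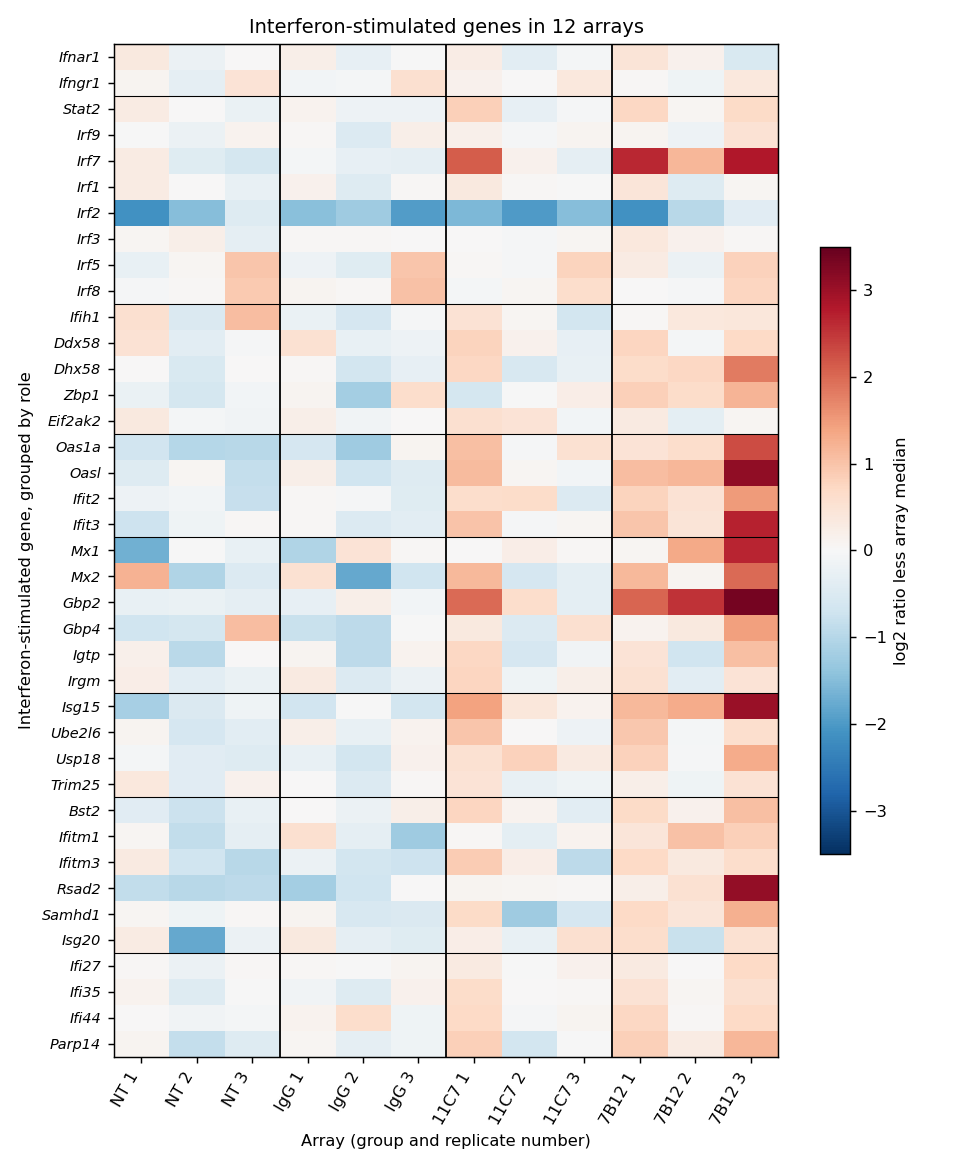
Heat map of the 39 interferon-stimulated genes (rows, grouped by role) in 12 arrays (columns, 3 for each group); colour is the log2 ratio less the array median, from -3.5 (blue) to 3.5 (red). Red concentrates in 7B12 3, 7B12 1 and 11C7 1, and the largest single value is that of Gbp2 in 7B12 3 (3.34).

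The comparison of 7B12 with the controls asks which genes differ with this antibody against the 763 to 820 stretch of Nogo-A. The arrays do not measure binding. Over the 39 genes the median difference was 0.62 (1.54-fold), against 0.012 over all 14217 genes, and 36 of 39 stood above 0, against 52.1% of all genes. In limma's fit over all 14217 genes, 0 genes passed an adjusted p of 0.05 (0% of those tested), and 860 had an unadjusted p under 0.05. Among the 39, 18 stood higher at an unadjusted p under 0.05, where 3.91% of all genes did, and 0 stood lower (2.14% of all genes). All 3 arrays of 7B12 lay above all 6 control arrays for 13 of the 39, where 2.52% of all genes did so. At least 2-fold differences upward were seen in 15 of 39 (4.5% of all genes). Without 7B12 3, 11 of the 39 stood higher at an unadjusted p under 0.05, and without 7B12 2 the median was 0.98. Without 11C7 1, which enters only through the shared estimate of spread, Gbp2 passed (adjusted p = 0.0205 in limma).

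The receptors showed no difference that these arrays could resolve. Ifnar1, a chain of the type I interferon receptor, stood at 0.34, -0.22 and 0.0098 in NT, 0.21, -0.29 and -0.012 in IgG, 0.25, -0.36 and -0.074 in 11C7, and 0.46, 0.14 and -0.54 in 7B12. Ifngr1, the chain that binds interferon gamma, stood at 0.088, -0.32 and 0.48 in NT, -0.088, -0.080 and 0.57 in IgG, 0.16, 0.019 and 0.37 in 11C7, and 0.054, -0.15 and 0.38 in 7B12. The 4 groups overlapped in both. With 7B12 the difference was 0.013 ± 0.24 for Ifnar1 (95% interval -0.53 to 0.56) and -0.015 ± 0.23 for Ifngr1 (-0.52 to 0.49). With 11C7 the differences were -0.069 ± 0.24 (-0.62 to 0.48) and 0.073 ± 0.23 (-0.43 to 0.58). These intervals come from the fit without the replicate number. With the number as a block, the SE was 0.17 for Ifnar1 and 0.11 for Ifngr1 with either antibody. The 6 probe sets of Ifnar1 disagreed in sign in 7B12, from -0.50 to 0.21, with 4 of them above 0. The lowest of them stood at 1.15, 0.18 and -3.34 in 7B12 1, 2 and 3, and this last value enters the -0.54 of 7B12 3. The sign of the Ifnar1 mean turned with the scaling (-0.023 with the values as deposited). Neither promoter held an ISRE core or a GAS in its 300 bases.

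Among the 8 transcription factors, Irf7 had the highest difference in 7B12. Irf7, which drives type I interferon genes and is itself induced by them, stood at 0.29, -0.42 and -0.62 in NT, -0.067, -0.29 and -0.32 in IgG, 2.13, 0.14 and -0.31 in 11C7, and 2.63, 1.16 and 2.81 in 7B12. The 7B12 arrays and 11C7 1 lay above every control array, while 11C7 2 and 3 lay within the controls. The difference of 7B12 from the controls was 2.44 ± 0.54 (5.42-fold; limma adjusted p = 0.401). Stat2, a partner of Irf9 in the complex on the ISRE, stood at 0.28, 0.015 and -0.23 in NT, 0.13, -0.18 and -0.17 in IgG, 0.85, -0.28 and -0.053 in 11C7, and 0.72, 0.056 and 0.67 in 7B12. Its values were high in 11C7 1, 7B12 1 and 7B12 3, and 7B12 2 lay within the controls, with a difference of 0.51 ± 0.26. Both of its probe sets stood higher in 7B12 (0.37 and 0.64). Irf9 stood at -0.016, -0.22 and 0.13 in NT, 0.036, -0.48 and 0.20 in IgG, 0.18, -0.036 and 0.10 in 11C7, and 0.10, -0.19 and 0.51 in 7B12, and only 7B12 3 exceeded all controls (0.20 ± 0.20). Irf1, a rapid target of interferon gamma with a GAS in its promoter, stood at 0.29, 0.020 and -0.27 in NT, 0.14, -0.44 and 0.035 in IgG, 0.35, 0.048 and -0.022 in 11C7, and 0.43, -0.45 and 0.059 in 7B12. Its groups overlapped, and the difference in 7B12 was 0.051 ± 0.23 (95% interval -0.45 to 0.55).

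The remaining factors gave differences from -0.11 to 0.29 in 7B12. They were Irf2, an antagonist of Irf1 (0.29 ± 0.43), the constitutive factor Irf3 (0.17 ± 0.14), and Irf5 (0.10 ± 0.39) and Irf8 (-0.11 ± 0.32), both of them factors of myeloid cells. Irf5 and Irf8 were high in the arrays numbered 3 in all groups, NT and IgG included. Irf8 was the 1 gene of the 39 that stood below the controls of its number in all 3 arrays of 7B12, where 15.9% of all genes did so. Of the 3 probe sets of Irf2, 2 had a median ratio under 1 over the 12 arrays, and their differences ran from -0.072 to 0.80.

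Of the 5 nucleic acid sensors, Dhx58 and Zbp1 were higher in 7B12 and the others less so. Dhx58, the gene of the RIG-I relative LGP2, stood at 0.0042, -0.53 and 0.013 in NT, 0.040, -0.65 and -0.28 in IgG, 0.72, -0.56 and -0.25 in 11C7, and 0.65, 0.72 and 1.81 in 7B12. The 3 arrays of 7B12 lay above all 6 controls, and only 11C7 1 among the 11C7 arrays did. The difference was 1.30 ± 0.35 (2.46-fold), with all 3 of its probe sets between 1.11 and 1.61. Zbp1, which encodes a sensor of Z-form nucleic acids in the necroptosis pathway, stood at -0.22, -0.62 and -0.086 in NT, 0.086, -1.18 and 0.63 in IgG, -0.61, -0.010 and 0.24 in 11C7, and 0.82, 0.65 and 1.18 in 7B12. Here 7B12 lay above all controls and above all 11C7 arrays, by 1.12 ± 0.36 over the controls. Ddx58 (RIG-I) differed by 0.42 ± 0.31, Ifih1 (MDA5) by 0.23 ± 0.35, and Eif2ak2, the gene of the kinase PKR that halts translation, by -0.032 ± 0.21. The groups overlapped in these 3 genes.

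All 4 measured OAS and IFIT genes of the interferon-stimulated list lay above the 6 control arrays in every 7B12 array. This did not hold for Ifit1 and Oas1b, which were counted among the other pathway genes below. Their differences in 7B12 were 2.13 ± 1.38 and 1.21 ± 1.34, with limma unadjusted p of 0.156 and 0.391. With the number as a block in the fit, the SE was 0.65 for Ifit1 and 0.89 for Oas1b. Oas1a, an oligoadenylate synthetase that activates RNase L, stood at -0.68, -0.99 and -0.97 in NT, -0.58, -1.24 and 0.11 in IgG, 1.06, -0.053 and 0.52 in 11C7, and 0.47, 0.61 and 2.28 in 7B12. Oasl, an OAS-like protein that aids RIG-I signalling, stood at -0.45, 0.069 and -0.82 in NT, 0.20, -0.70 and -0.45 in IgG, 1.12, 0.058 and -0.10 in 11C7, and 1.08, 1.16 and 3.10 in 7B12. In both genes 7B12 3 was the highest of the 12 arrays. For Oas1a, 11C7 1 and 11C7 3 also lay above all controls, and for Oasl only 11C7 1 did. Ifit2 and Ifit3 belong to a family that blocks translation of foreign RNA. Ifit2 stood at -0.19, -0.096 and -0.81 in NT, 0.032, -0.033 and -0.44 in IgG, 0.61, 0.63 and -0.49 in 11C7, and 0.77, 0.49 and 1.48 in 7B12. Ifit3 stood at -0.72, -0.15 and 0.054 in NT, 0.034, -0.48 and -0.36 in IgG, 0.99, -0.032 and 0.069 in 11C7, and 0.97, 0.44 and 2.70 in 7B12. Ifit3 in 11C7 2 and Ifit2 in 11C7 3 lay within the range of the controls. The differences in 7B12 were 2.14 ± 0.48 for Oasl (4.41-fold), 1.84 ± 0.44 for Oas1a (3.59-fold), 1.64 ± 0.46 for Ifit3 (3.12-fold) and 1.17 ± 0.32 for Ifit2 (2.25-fold), with limma adjusted p of 0.401, 0.401, 0.491 and 0.489.

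The GTPases had the largest difference of the 39 genes and a wide range. Gbp2, a guanylate-binding protein that attacks pathogen vacuoles, stood at -0.25, -0.22 and -0.33 in NT, -0.27, 0.20 and -0.11 in IgG, 1.97, 0.60 and -0.33 in 11C7, and 2.03, 2.52 and 3.34 in 7B12. The 6 controls spanned only -0.33 to 0.20, the 3 arrays of 7B12 lay above 2, and the 3 arrays of 11C7 ran from 1.97 to -0.33, just below the lowest control. Its difference in 7B12 was 2.79 ± 0.45 (6.94-fold; limma adjusted p = 0.347), the second smallest unadjusted p of the 14217 genes. Mx1, a dynamin-like GTPase against influenza-type viruses, stood at -1.67, -0.018 and -0.25 in NT, -1.05, 0.47 and 0.033 in IgG, 0.0073, 0.24 and 0.042 in 11C7, and 0.059, 1.33 and 2.67 in 7B12. It was low in NT 1 and IgG 1, and 7B12 1 lay within the controls, while 7B12 2 and 3 lay above them (1.77 ± 0.57). Mx2 followed the number in the controls, with NT 1 and IgG 1 high, and differed by 1.45 ± 0.69. Gbp4 differed by 0.97 ± 0.47, and the immunity-related GTPases Igtp and Irgm by 0.51 ± 0.46 and 0.33 ± 0.29. With the number as a block in the fit, the SE was 0.39 for Mx2, 0.24 for Gbp4, 0.22 for Igtp and 0.13 for Irgm. Each of them then had an unadjusted p under 0.05 (6.84% of all genes stood higher so). Limma's adjusted p with the block ran from 0.231 (Gbp4) to 0.421 (Igtp). For Gbp2 the SE with the block was 0.49. Near-identical family members can bind the same probes, so values of Mx1 and Mx2, or Ifitm1 and Ifitm3, may share signal, which was not tested.

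In the ISG15 system, Isg15 and Usp18 were higher in 7B12. Ube2l6 was less clearly so when the replicate number was left out of the fit, and Trim25 with or without it. Isg15, a ubiquitin-like protein that is attached to other proteins, stood at -1.16, -0.50 and -0.15 in NT, -0.66, -0.014 and -0.63 in IgG, 1.397, 0.39 and 0.12 in 11C7, and 1.15, 1.29 and 3.02 in 7B12. All 3 arrays of 7B12 and all 3 of 11C7 lay above the 6 controls. Usp18, the protease that removes Isg15 and restrains type I interferon signalling, stood at -0.081, -0.38 and -0.45 in NT, -0.26, -0.64 and 0.15 in IgG, 0.54, 0.80 and 0.33 in 11C7, and 0.79, -0.042 and 1.30 in 7B12. All 3 arrays of 11C7 lay above the controls, but 7B12 2 did not. The differences in 7B12 were 2.34 ± 0.46 for Isg15 (5.06-fold; limma adjusted p = 0.347) and 0.96 ± 0.29 for Usp18 (1.95-fold; adjusted p = 0.558). The Isg15-conjugating enzyme gene Ube2l6 differed by 0.62 ± 0.30, and Trim25, a ubiquitin ligase for RIG-I, by 0.23 ± 0.25. Against the controls of its number Ube2l6 stood higher by 0.79, 0.36 and 0.72 in 7B12 1, 2 and 3. With the number as a block in the fit, the SE was 0.18 for Ube2l6, 0.28 for Usp18 and 0.15 for Trim25. Limma's unadjusted p was then 0.00916 for Ube2l6 (0.0681 without the block) and 0.161 for Trim25 (0.377 without it). Their adjusted p in limma with the block was 0.257 and 0.607.

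Among the 6 restriction factors, 5 stood higher in 7B12 at an unadjusted p under 0.05 (3.91% of all genes), Isg20 being the exception (0.48 ± 0.48). Rsad2, which encodes viperin, stood at -0.87, -0.96 and -0.91 in NT, -1.201, -0.71 and 0.0087 in IgG, 0.084, 0.072 and 0.039 in 11C7, and 0.21, 0.54 and 3.07 in 7B12. All antibody arrays against Nogo-A lay above the 6 controls, but 7B12 3 stood far above the other 5. Bst2 (tetherin), which holds budding virus at the cell surface, stood at -0.39, -0.76 and -0.27 in NT, 0.016, -0.20 and 0.22 in IgG, 0.77, 0.13 and -0.38 in 11C7, and 0.66, 0.15 and 1.07 in 7B12. Its 7B12 2 value lay below IgG 3, and the 3 arrays of IgG lay above those of NT. Ifitm1, a membrane protein that blocks viral entry, stood at 0.055, -0.87 and -0.30 in NT, 0.55, -0.30 and -1.26 in IgG, 0.032, -0.35 and 0.11 in 11C7, and 0.41, 1.02 and 0.85 in 7B12. Here 7B12 1 lay below IgG 1, while 7B12 2 and 3 were the highest of the 12 arrays. Its relative Ifitm3 stood at 0.32, -0.69 and -0.96 in NT, -0.20, -0.64 and -0.73 in IgG, 0.88, 0.25 and -0.91 in 11C7, and 0.69, 0.35 and 0.62 in 7B12. All 3 arrays of 7B12 lay above the controls, 11C7 1 was the highest of all, and 11C7 3 was close to the lowest control. Samhd1, which destroys nucleotides needed for viral DNA synthesis, stood at 0.069, -0.14 and 0.049 in NT, 0.089, -0.56 and -0.50 in IgG, 0.68, -1.25 and -0.59 in 11C7, and 0.69, 0.41 and 1.25 in 7B12. It was high in 7B12 and in 11C7 1, and 11C7 2 was the lowest array. The differences in 7B12 were 2.05 ± 0.55 for Rsad2, 1.12 ± 0.36 for Ifitm1, 1.04 ± 0.39 for Ifitm3, 0.95 ± 0.37 for Samhd1 and 0.86 ± 0.28 for Bst2.

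Parp14, an ADP-ribosyltransferase, stood at 0.11, -0.82 and -0.44 in NT, 0.056, -0.31 and -0.15 in IgG, 0.84, -0.64 and -0.021 in 11C7, and 0.82, 0.30 and 1.16 in 7B12. The 3 arrays of 7B12 lay above all controls (1.02 ± 0.33), with its 2 probe sets at 1.00 and 1.03. Ifi35 stood at 0.11, -0.45 and -0.021 in NT, -0.12, -0.44 and 0.14 in IgG, 0.65, 0.022 and 0.048 in 11C7, and 0.51, 0.062 and 0.57 in 7B12. Its 7B12 2 value overlapped with NT 1 and IgG 3, and the difference was 0.51 ± 0.22. The differences of Ifi27 and Ifi44 were 0.34 ± 0.16 and 0.42 ± 0.24. Over the 18 genes at an unadjusted p under 0.05, limma's adjusted p ran from 0.347 (Gbp2 and Isg15) to 0.804 (Ifi35), so none passed. Of the 9 genes with more than 1 probe set, 7 had all probe sets on 1 side of 0 in 7B12, the exceptions being Ifnar1 and Irf2.

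**Figure D3:**
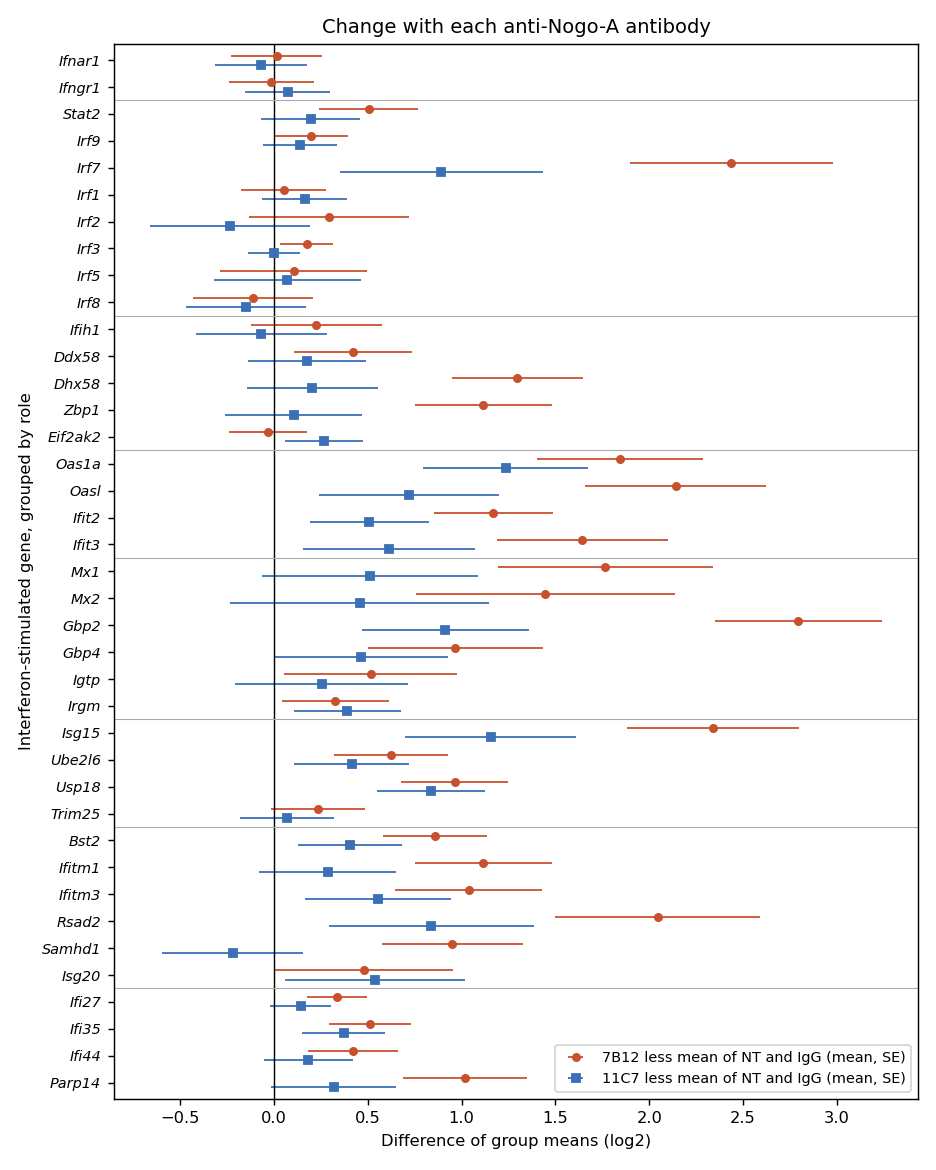
Difference from the mean of NT and IgG (horizontal axis, log2; bars are SE) for 7B12 (circles) and 11C7 (squares) in each of the 39 genes (vertical axis, grouped by role). The OAS and IFIT genes with 7B12 run from 1.17 to 2.14, the 2 receptors sit close to 0, and with 11C7 the highest point is Oas1a at 1.23.

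For 11C7, the antibody against the 623 to 640 stretch, the question was the same, and here the arrays differed among themselves. Against the controls of their number 33, 32 and 20 of the 39 genes stood higher in 11C7 1, 2 and 3 (54.5%, 54.4% and 49.7% of all genes). The median difference from the controls over the 39 genes was 0.29 (1.22-fold), against 0.031 over all genes, and 34 of 39 stood above 0 (56.1% of all genes). In limma 0 of the 14217 genes passed, and 425 had an unadjusted p under 0.05. Of the 39, 3 stood higher at an unadjusted p under 0.05 (1.13% of all genes), namely Usp18 (0.83 ± 0.29), Oas1a (1.23 ± 0.44) and Isg15 (1.15 ± 0.46), each with a limma adjusted p that rounds to 1. At that level 0 stood lower (1.86% of all genes). Every array of 11C7 lay above all 6 controls for 3 of the 39 (0.935% of all genes): Usp18, Isg15 and Rsad2. Oas1a and Isg15 stood at least 2-fold higher (2 of 39, against 2.06% of all genes). Without 11C7 1 the median was 0.11 and 1 gene stood higher at an unadjusted p under 0.05; without 11C7 3 it was 8 genes, and without 11C7 2 the median was 0.43.

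The single arrays show that unevenness. In 11C7 1, 25 of the 39 genes lay above all 6 controls, where 16.8% of all genes did, and 10 stood at least 2-fold above the control mean (4.95% of all genes). In 11C7 2 and 11C7 3 these counts were 6 and 7 (14.8% and 11.9% of all genes), with 1 gene at 2-fold in each (3.92% and 6.06% of all genes). In 7B12 1, 2 and 3 they were 27, 15 and 31 (13.7%, 15.1% and 23.6% of all genes), with 13, 8 and 21 at 2-fold or more (5.32%, 9.54% and 10.1% of all genes). The median of the 39 genes above their control means was 0.78, 0.032 and 0.12 in 11C7 1, 2 and 3, and 0.75, 0.32 and 1.10 in 7B12 1, 2 and 3. These values set each array against all 6 controls. Against the controls of its own number, the median was 0.60, 0.31 and 0.0225 in 11C7 1, 2 and 3.

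Control IgG against NT asks what differs with an antibody that is not directed at Nogo-A. The median difference over the 39 genes was 0.024 (1.02-fold), against -0.0038 over all genes, and 23 of 39 stood above 0 (49% of all genes). In limma 0 of 14217 genes passed (272 with an unadjusted p under 0.05), and of the 39 genes 0 stood higher or lower at an unadjusted p under 0.05 (1.07% and 0.844% of all genes). The differences ran from -0.66 ± 0.40 for Ifih1 (95% interval -1.56 to 0.24) to 0.48 ± 0.32 for Bst2 (-0.23 to 1.19). Bst2 was also the 1 gene of the 39 with all 3 IgG arrays above all 3 NT arrays (2.24% of all genes). Without NT 2 the median was -0.096 and 1 gene stood lower at an unadjusted p under 0.05. With 1 array left out the median ran from -0.096 to 0.11. A p that misses the threshold does not show that the 2 control groups are alike. For Gbp2, Isg15 and Irf7 the 95% intervals of IgG less NT were -0.95 to 1.36, -1.01 to 1.34 and -1.37 to 1.41.

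The direct comparison of 7B12 with 11C7 uses no control array. The median difference was 0.31 (1.24-fold) upward in 7B12, against -0.0087 over all genes, and 34 of 39 genes stood above 0 (48.8% of all genes). In limma 0 of 14217 genes passed (524 with an unadjusted p under 0.05); of the 39, 7 stood higher in 7B12 at an unadjusted p under 0.05 (2.48% of all genes) and 0 lower (1.21%). These were Gbp2 (1.88 ± 0.51), Irf7 (1.55 ± 0.62), Oasl (1.42 ± 0.56), Isg15 (1.19 ± 0.53), Samhd1 (1.17 ± 0.43), Dhx58 (1.09 ± 0.40) and Zbp1 (1.01 ± 0.42), each with a limma adjusted p that rounds to 1. All 3 arrays of 7B12 lay above all 3 of 11C7 for 4 of the 39, Gbp2, Zbp1, Ifitm1 and Rsad2 (3.72% of all genes), and 10 of 39 were at least 2-fold higher (5.4%). Within numbers, the mean of the 39 genes in 7B12 less 11C7 was 0.0075, 0.35 and 1.22, and 16, 26 and 36 of the 39 genes stood higher in 7B12, where 42.2%, 50% and 54.1% of all genes did; 8 did so in all 3 numbers (12.8% of all genes). Without 11C7 1 the median was 0.61 and without 7B12 2 0.52. Without 11C7 2, 11C7 3 or 7B12 3 the 7 genes became 1, 2 and 1.

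Other genes of the interferon pathway were taken from a list of 76, of which 50 were measured. In 7B12, 44 of 50 stood above 0 (52.1% of all genes) with a median difference of 0.45. At an unadjusted p under 0.05, 13 stood higher (3.91% of all genes) and 0 lower (2.14%), and 0 passed in limma. In 11C7, 34 of 50 stood above 0 (56.1% of all genes; median 0.17), with 3 higher (1.13%) and 0 lower (1.86%). In IgG against NT it was 28 of 50 (49% of all genes; median 0.011), with 0 higher and 0 lower (1.07% and 0.844%). By role, the 6 receptor and kinase genes (Ifnar2, Ifngr2, Il10rb, Jak1, Jak2 and Tyk2) had a median of 0.19 in 7B12 and 0.053 in 11C7, with 0 at an unadjusted p under 0.05. The 7 sensing genes had 0.27 and 0.081, with Tlr7 (0.98 ± 0.36) and the adaptor gene Myd88 (0.46 ± 0.17) at an unadjusted p under 0.05 in 7B12. The 30 further target genes had 0.63 and 0.26, and 11 and 3 of them stood higher at an unadjusted p under 0.05 (3.91% and 1.13% of all genes). The 5 factor and inhibitor genes had 0.13 and -0.0027, and the 2 ligand genes -0.39 and -1.30, with 0 at an unadjusted p under 0.05. The ligand genes were Ifnb1 (-0.29 ± 0.93 in 7B12, -0.73 ± 0.93 in 11C7) and Ifng (-0.49 ± 0.87, -1.87 ± 0.87). Both stood far below 0 in every group, with control means of -3.12 and -1.56. With SE of this size, their medians do not show a change of the ligands.

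The 6 of these with the smallest p were all targets. Cxcl10, a chemokine that draws activated T cells, stood at -0.23, 0.018 and -0.82 in NT, -0.068, -0.82 and -0.18 in IgG, 2.36, 0.79 and 0.094 in 11C7, and 1.44, 2.35 and 3.52 in 7B12. Cxcl9, a chemokine mainly of interferon gamma, stood at -0.36, 0.074 and -1.73 in NT, -0.11, -0.96 and -0.51 in IgG, 0.73, -0.53 and 0.026 in 11C7, and 1.49, 0.80 and 3.73 in 7B12. Cxcl11, of the same receptor, stood at 0.29, -0.35 and -0.93 in NT, -0.55, -0.19 and -0.74 in IgG, 2.84, 0.33 and -1.32 in 11C7, and 2.56, 1.75 and 3.06 in 7B12. All 3 chemokines lay above the 6 controls in each 7B12 array. They differed by 2.86 ± 0.74 (Cxcl11), 2.79 ± 0.54 (Cxcl10) and 2.60 ± 0.63 (Cxcl9) in 7B12. In 11C7 1, Cxcl10 and Cxcl11 lay within the range of the 7B12 arrays, and in 11C7 3 Cxcl11 was the lowest of the 12 arrays. Lgals9 (galectin-9) stood at -0.33, -0.18 and 0.10 in NT, -0.28, -0.039 and -0.086 in IgG, 1.17, 0.35 and -0.021 in 11C7, and 0.98, 1.44 and 1.61 in 7B12. Psmb9, an immunoproteasome subunit gene, stood at 0.039, -0.27 and 0.067 in NT, 0.021, -0.30 and 0.15 in IgG, 1.37, 0.022 and -0.059 in 11C7, and 0.84, 0.96 and 1.59 in 7B12. Slfn2, of the Schlafen family, stood at -0.60, -0.40 and -0.19 in NT, -0.35, -0.40 and 0.22 in IgG, 0.69, -0.69 and 0.30 in 11C7, and 0.58, 1.06 and 2.11 in 7B12. In each of these 3 the 7B12 arrays lay above all 6 controls, by 1.48 ± 0.25, 1.18 ± 0.32 and 1.54 ± 0.37. Limma's adjusted p for the 6 ran from 0.347 to 0.489 in 7B12.

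Of 8 lists of markers of cell types that a slice could hold, 3 had the highest median differences in 7B12. These were microglia, neutrophils and lymphocytes, though not every 7B12 array stood above the controls of its number. Microglia and macrophage markers (18 of 19 measured) had array means from -0.59 to 0.44 in NT, -0.25 to 0.61 in IgG, -0.36 to 0.41 in 11C7 and 0.11 to 0.73 in 7B12. Against the controls of the same number these were 0.37, 0.57 and 0.21 in 7B12 1, 2 and 3 and 0.42, 0.062 and -0.12 in 11C7. In 7B12, 13 of 18 stood above 0 (52.1% of all genes) with a median of 0.22, and 4 were higher at an unadjusted p under 0.05 (3.91% of all genes). In 11C7 it was also 13 of 18 (56.1% of all genes), with a median of 0.058 and 0 higher at that level (1.13% of all genes). Neutrophil markers (4 of 7 measured) ran from -1.85 to -0.88 in NT, -1.47 to 0.44 in IgG, -1.07 to -0.56 in 11C7 and -0.39 to 0.29 in 7B12, with medians of 0.81 in 7B12 and 0.26 in 11C7. Against the controls of their number they stood at 1.02, 1.34 and 0.51 in 7B12 and at 0.85, 0.57 and -0.42 in 11C7. All 4 measured neutrophil markers stood above 0 with either antibody (52.1% of all genes in 7B12, 56.1% in 11C7). T, B and NK cell markers (12 of 14) ran from -1.95 to -0.76 in NT, -1.04 to -0.82 in IgG, -1.82 to -0.82 in 11C7 and -1.19 to -0.087 in 7B12 (medians 0.42 in 7B12 and -0.12 in 11C7), and against the controls of their number at -0.029, 0.95 and 0.81 in 7B12 and at 0.037, -0.34 and 0.078 in 11C7. At an unadjusted p under 0.05, 2 of 4 neutrophil and 2 of 12 lymphocyte markers stood higher in 7B12 (3.91% of all genes). At that level 1 of the 12 lymphocyte markers stood lower in 11C7 (1.86% of all genes). Their part in the result was not tested, and ratios do not show whether a defining marker was near 0.

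Neuron markers had a median of 0.060 in 7B12 and -0.16 in 11C7, and those of hippocampal principal neurons (7 of 8) -0.14 and -0.29. Astrocyte markers (8 of 9) had -0.047 and -0.14, oligodendrocyte markers (7 of 8) -0.11 and 0.20, and endothelial markers (8 of 9) -0.40 and 0.10. In these 5 lists no gene had an unadjusted p under 0.05 in either contrast. Neuron markers, which ran from -1.69 to 1.22 over the arrays, were as low in 7B12 1 (-1.08) and 11C7 1 (-1.07) as in IgG 1 (-1.08).

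**Figure D4:**
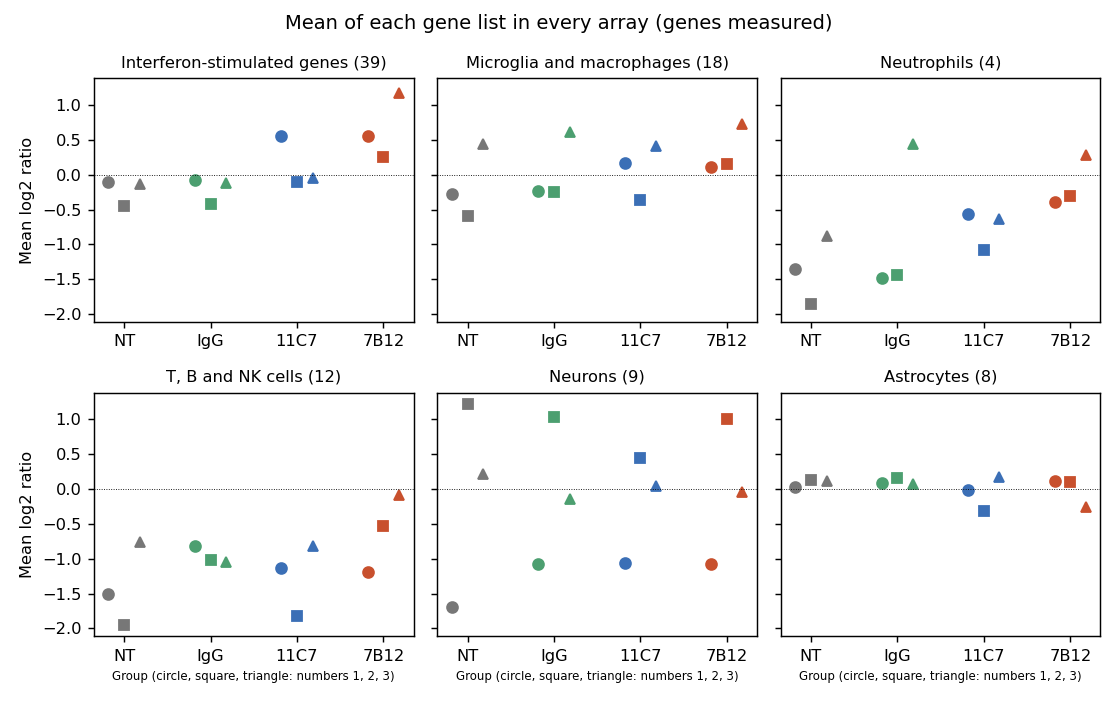
Mean log2 ratio (vertical axis) of the 39 interferon-stimulated genes and of 5 lists of cell type markers in every array, by group (horizontal axis); circles, squares and triangles are numbers 1, 2 and 3, and the number of genes stands above each panel. The interferon-stimulated genes separate 7B12 (0.25 to 1.17) from all 6 controls (-0.45 to -0.076), microglial, neuronal and astrocyte means overlap among the groups, neutrophil means in 7B12 (-0.39 to 0.29) lie above all controls but IgG 3 (0.44), and lymphocyte means in 7B12 2 and 3 (-0.53 and -0.087) lie above all 6 controls (at most -0.76).

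Returning to the promoters, the 16 genes with an ISRE core had a median difference of 0.91 in 7B12 (from -0.032 for Eif2ak2 to 2.79 for Gbp2), and 8 of them had an unadjusted p under 0.05. The 14 genes without 1 had a median of 0.22 (from -0.11 for Irf8 to 2.14 for Oasl), with 4 at an unadjusted p under 0.05, namely Oasl, Mx1, Samhd1 and Ifi35. Of all genes, 3.91% stood higher in 7B12 at that level. In 11C7 the medians were 0.43 and 0.11. For the GAS the medians in 7B12 were 0.69 with a match (10 genes) and 0.49 without (20 genes), and in 11C7 0.29 and 0.32. The genes without an ISRE core included both receptors and the factors Irf1, Irf3, Irf5, Irf8, Irf9 and Stat2. Irf7 was the only transcription factor with a match. The others without a match were Oasl (2.14), Mx1 (1.77), Samhd1 (0.95), Ube2l6 (0.62), Ifi35 (0.51) and Trim25 (0.23). The ISRE medians thus also differ in the roles of their genes, and the part of the motif was not tested. These are descriptions of 300 bases around 1 annotated start per gene.

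**Figure D5:**
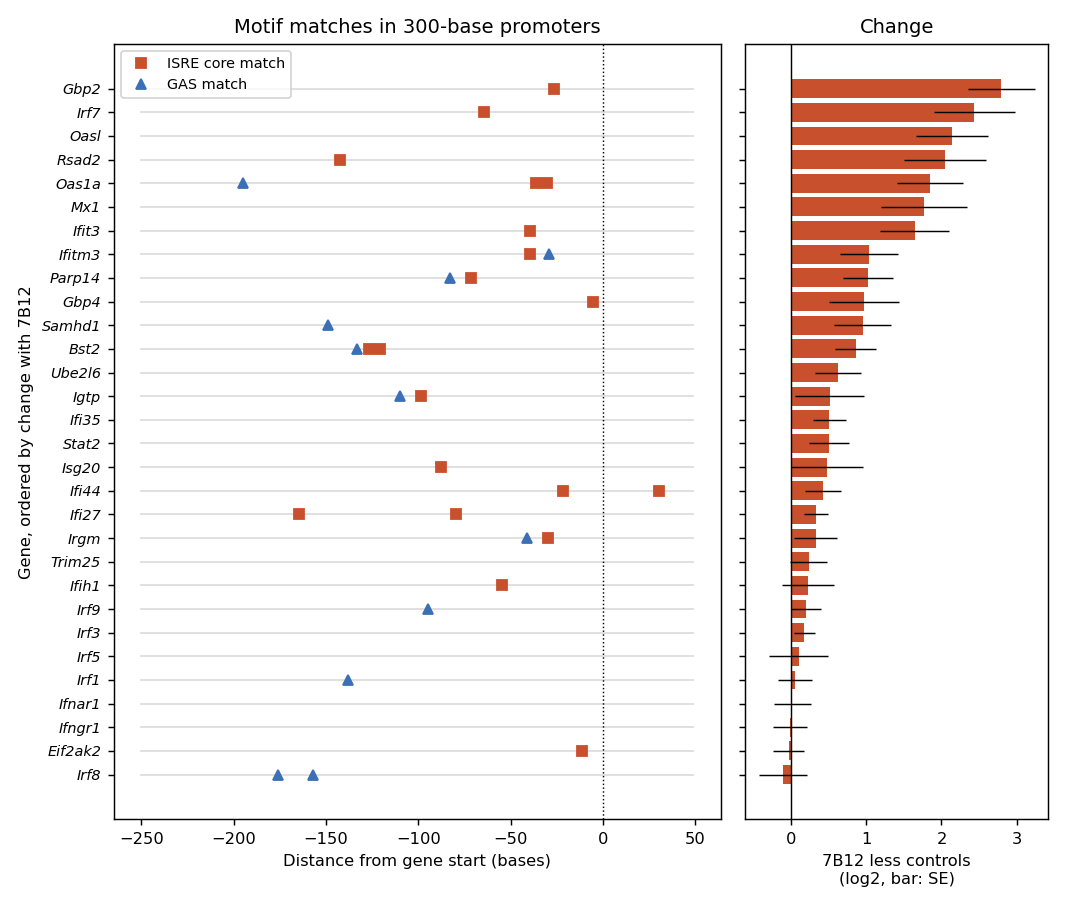
Left, position of each ISRE core (squares) and GAS (triangles) match in the promoters of 30 genes, as distance from the gene start in bases (horizontal axis); right, the difference of 7B12 from the controls (log2, bars are SE) in the same order. ISRE core matches lie mostly close before the start, and Oasl and Mx1 stand high on the right without a match of either motif on the left.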

How the data were processed

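RNA of 12 samples was hybridised to Affymetrix rat arrays. The submitters' processing notes name GCOS 1.4 and MAS5 without their roles; the design text adds a normalization per array and per gene. What the authors deposited is a ratio for each probe set to a reference, which the design text calls the control median. Counting 0.0015 either way as equal, the 12 arrays have a median of 1 in 76.4% of probe sets, the 6 controls in 11.2%. The same divisor in every array leaves group differences in log2 as they are. Of 31099 probe sets, 57 spike-ins were left out; 20826 have 1 symbol, 436 several and 9780 none here.

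Log2 ratios less the array median were averaged per gene (54 probe sets for the 39 genes). One mean per group was estimated with limma 3.58.1 under R 4.3.3 from all 12 arrays and 14217 genes, without a mean-variance trend, two-sided, with Benjamini-Hochberg adjustment and a threshold of 0.05. The fit was checked on simulated data. The members and lists were chosen with earlier results of these data known. By rule, values in every array are given for genes at an unadjusted p under 0.05 in 1 of the 4 contrasts and for Stat2, Irf9, Irf7, Irf1, Ifnar1 and Ifngr1, and for at most 6 other pathway genes.

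Alternatives were a replicate block, IgG as the only control, values as deposited, quantile normalization, array weights, a trend, single probe sets, no dim probe sets (median under 1), the methods' analysis of variance with 1.2-fold and leaving out each array. Sequences came from RefSeq (GRCr8).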

Additional observations from a re-analysis of the deposited data

How the results depend on the processing

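Arrays with the same number deviated together from their group means (r from 0.086 to 0.42 over 18 pairs, against -0.29 to 0.081 for different numbers), so every array correlated best with its own number, a hint from the data and not from the design; 1 of the 18 was under 0.1 and no label states a shared origin, so the replicate block was kept as an alternative. With the replicate block, genes of the 39 at an unadjusted p under 0.05 were 25 higher in 7B12 (18 without it; 6.84% of all genes with it), 5 higher in 11C7 (3; 2.79% of all genes with it) and 8 higher in 7B12 against 11C7 (7; 4.24%), and 0 passed adjustment. With the block and the groups outside the contrast left out, 1 gene passed in 7B12 (Gbp2, adjusted p = 0.0226 in limma), and the genes at an unadjusted p under 0.05 were 7 higher in 11C7, 2 higher and 1 lower in IgG against NT, and 2 higher in 7B12 against 11C7.

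The methods' analysis of variance tests for any difference among the 4 groups, so 1 p per gene served every contrast. Only the 1.2-fold limit was set per contrast. Of the genes with that unadjusted p under 0.05, 8 were at least 1.2-fold higher in 7B12, 7 in 11C7 and 1 in IgG against NT. After adjustment it was 0. These counts do not test the single contrasts. In limma, the genes higher in 11C7 at an unadjusted p under 0.05 were 1 against IgG alone and 5 with array weights. Quantile normalization gave 3 in 7B12 against 11C7. The difference of Ifnar1 in 7B12 turned to -0.023 with values as deposited and -0.025 with quantile normalization. Causes were not tested. Other planned settings kept these counts within 1.5 times and the sign of each gene named in a contrast.

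Without 1 array, blocked or not, 0 to 2 genes passed in 7B12 (1 without 11C7 1, and 2 with the block, Gbp2 and Irf7); 11 to 22 stood higher there (17 to 26 with the block), 1 to 8 in 11C7 (1 to 15 with the block, where leaving out 7B12 3 gave 10 and 11C7 3 gave 15), 0 to 1 in IgG against NT and 1 to 10 in 7B12 against 11C7 (1 to 12 with the block), and 0 to 1 lower in the last 3. Differences in 7B12 ran, without and with the block, from -0.21 to 0.29 and -0.18 to 0.29 for Ifnar1, -0.16 to 0.11 and -0.066 to 0.022 for Ifngr1, and -0.16 to 0.28 and -0.035 to 0.21 for Irf1. With the block, the sign of Ifnar1 also turned without NT 2 (-0.015), IgG 1 (-0.013), IgG 2 (-0.015) or 7B12 1 (-0.067), that of Ifngr1 without NT 1 (0.0094), NT 3 (0.0085) or 7B12 3 (0.013), and that of Irf1 without NT 3 (-0.021) or 7B12 3 (-0.023). With 3 arrays a group, small differences cannot be resolved. Shares over all genes were computed only for the main fit and the replicate block, not for the other settings or with 1 array left out.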
